A study of Mus musculus with 6 samples.

Results

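The genes described are 10 enzymes of de novo purine and pyrimidine synthesis, Ppat, Gart, Pfas, Paics, Adsl, Atic, Impdh2, Gmps, Cad and Umps. They were taken by gene symbol from a table of 47725 mouse genes, where each symbol matched 1 row, and all 10 were abundant enough to be among the 13928 genes tested. RNA-seq was done on wild type C57BL/6 CD4+ T cells grown from naive cells for 3 days under TH17-polarizing conditions. The medium held 10% serum, 2 µg/ml anti-CD28, 10 µg/ml anti-IFN-γ, 5 µg/ml anti-IL-4, and 10 ng/ml each of TGF-β1, IL-6 and IL-23. Also stated are 0.02 mM glutamine, 55 nM β-mercaptoethanol and 500 U penicillin-streptomycin, and both groups received all of these. CKBA, a derivative of the boswellic acid AKBA, was given to the cells of 3 libraries and the solvent DMSO to those of the other 3, with no CKBA dose given in the sources used here. No label says that the replicates came from separate animals or cultures, so the p-values reflect the spread among 6 libraries, which could be technical.

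De novo synthesis builds nucleotides from small precursors rather than from recycled bases. The purine ring is assembled stepwise on phosphoribosyl pyrophosphate (PRPP) from glutamine, glycine, aspartate, carbon dioxide and formyl groups carried by folate, and ends in inosine monophosphate (IMP), from which AMP and GMP are made. The pyrimidine ring is built first, from glutamine, bicarbonate and aspartate, and joined to PRPP afterwards to give UMP. T cells leaving the naive state raise this synthesis as they begin to divide, and blocking it, as mycophenolate does at IMP dehydrogenase or leflunomide at dihydroorotate dehydrogenase, restrains their expansion.

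The libraries held 19838347 to 25331863 counts, and the 10 enzymes had 1396 to 8064 counts in each. The labels name epidermis as tissue. Of 6 T cell markers all 6 were tested, with a summed level of 2078.8 to 2191.9 CPM with DMSO and 1547.9 to 1736.9 CPM with CKBA, and 2 of them, Cd3d and Cd28, were called lower by edgeR, the first not when any of the 4 libraries numbered 1 or 2 was left out. By contrast, 4 of 6 keratinocyte markers, Krt14, Krt1, Dsg3 and Ivl, had no count in any library, and the list summed to at most 2.0 CPM. CPM are counts relative to each library's total after scaling by the trimmed mean of M-values (TMM). Replicate 3 of both groups stood apart from replicates 1 and 2, and the values of the 10 enzymes are therefore given by library. For many other genes only the mean and SD of each group or the estimate are given.

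All 10 enzymes had higher estimates with CKBA than with DMSO, by small amounts, and 1 of them passed the test. Log2 fold changes lay between 0.06 and 0.41 with standard errors of 0.08 to 0.12, and the median was 0.30, against 0.005 over all tested genes. Adsl was called higher (adjusted p under 0.05, quasi-likelihood test of edgeR, with p-values adjusted over all tested genes by the Benjamini-Hochberg method). Of all tested genes 7.86% were called higher and 9.23% lower, so that 1 higher and 0 lower of 10 is near the background. At an unadjusted p under 0.05, 7 of the 10 enzymes were higher, against 15.9% of tested genes. In 8 of 10 the 3 CKBA libraries lay above the 3 DMSO libraries, which was the case for 18.2% of tested genes. A positive estimate alone was found for 50.5% of tested genes. In bulk RNA a different number of dividing cells and a different amount of RNA per cell cannot be told apart.

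**Figure D1:**
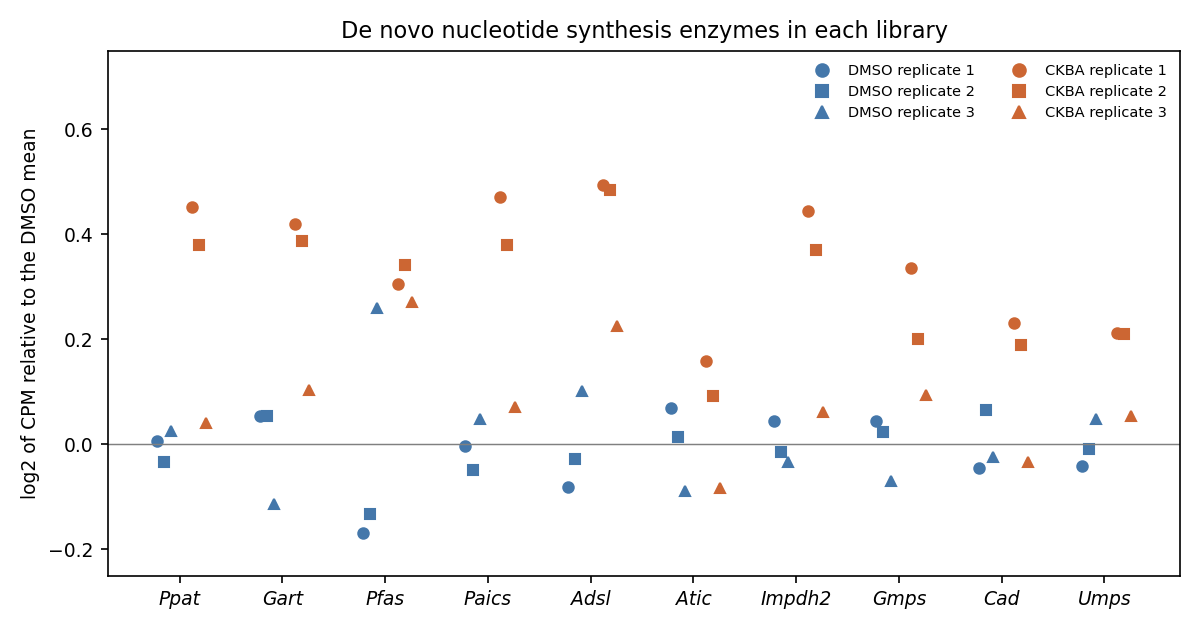
Level of each enzyme in each of the 6 libraries, as the log2 of CPM relative to the mean of the 3 DMSO libraries (y axis), with DMSO in blue, CKBA in orange and a marker shape per replicate. CKBA replicates 1 and 2 lie above all DMSO libraries for 10 of 10 enzymes, and CKBA replicate 3 is the lowest CKBA library for each.

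The enzymes that build IMP had a median log2 fold change of 0.31 over 6 genes. Ppat (ENSMUSG00000029246, GRCm38 chromosome 5, 76913249 to 76951578, minus strand) encodes PRPP amidotransferase, the committed step, which takes nitrogen from glutamine. It stood at 71.0, 69.0 and 71.9 CPM in DMSO replicates 1, 2 and 3 and at 96.7, 91.9 and 72.7 CPM in CKBA replicates 1, 2 and 3. The DMSO libraries were close together, and CKBA replicate 3 lay just above them. The log2 fold change of Ppat was 0.30 ± 0.11 (SE), with an adjusted p = 0.101 (edgeR's quasi-likelihood test).

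Gart (ENSMUSG00000022962, chromosome 16, 91621186 to 91646952, minus strand) encodes a fused protein that adds glycine, adds a formyl group from folate and closes the small ring of the purine. Its levels were 113.2, 113.1 and 100.7 CPM with DMSO and 145.9, 142.5 and 117.2 CPM with CKBA, again in replicate order. The groups did not overlap, and replicate 3 was the lowest library on both sides. For Gart the log2 fold change was 0.31 ± 0.10 (adjusted p = 0.0736, edgeR). With the replicate number as a block Gart passed the test, with an adjusted p of 0.0101 by the same test.

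Pfas (ENSMUSG00000020899, chromosome 11, 68985697 to 69008460, minus strand) encodes the amidotransferase that draws on glutamine a second time. It read 97.8, 100.4 and 131.8 CPM with DMSO and 135.9, 139.4 and 132.7 CPM with CKBA. Here it was DMSO replicate 3 that differed from its group, at the level of the CKBA libraries, while the 3 CKBA libraries agreed within an SD of 3.34 CPM. For Pfas the log2 fold change was 0.31 ± 0.12 (adjusted p = 0.114, edgeR), and without DMSO replicate 3 it was 0.46 (adjusted p = 0.00542, edgeR).

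Paics (ENSMUSG00000029247, chromosome 5, 76951307 to 76967509, plus strand) encodes a fused carboxylase and synthetase that brings in carbon dioxide and aspartate. It was expressed at 233.5, 226.2 and 242.0 CPM with DMSO and at 324.3, 304.3 and 245.7 CPM with CKBA. As for Ppat, CKBA replicate 3 was hardly above the highest DMSO library. The log2 fold change of Paics was 0.32 ± 0.11 (adjusted p = 0.0783, edgeR), and with the replicate block the adjusted p was 0.0467 by edgeR.

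Adsl (ENSMUSG00000022407, chromosome 15, 80948490 to 80970946, plus strand) encodes adenylosuccinate lyase, which removes fumarate after aspartate has given its nitrogen, both on the way to IMP and on the way to AMP. It stood at 76.5, 79.4 and 86.8 CPM with DMSO and at 113.9, 113.2 and 94.6 CPM with CKBA. The groups did not overlap, but CKBA replicate 3 was closer to DMSO replicate 3 than to the other CKBA libraries. Adsl rose by 0.41 ± 0.10 on the log2 scale, or 1.33-fold (adjusted p = 0.0271, edgeR's quasi-likelihood test). The call was lost when any of the 4 libraries numbered 1 or 2 was left out (adjusted p from 0.108 to 0.12, same test). It was also lost once the libraries numbered 1 and 2 were summed within each group (adjusted p = 0.355, edgeR). In the authors' deposited table, which rests on the same libraries, Adsl had a log2 fold change of 0.38 and an FDR of 0.0139 and was the only member under 0.05.

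Atic (ENSMUSG00000026192, chromosome 1, 71557150 to 71579631, plus strand) encodes the last enzyme before IMP, which takes a formyl group from folate and closes the ring. Its levels were 177.0, 170.5 and 158.8 CPM with DMSO and 188.4, 179.9 and 159.3 CPM with CKBA. The groups overlapped, and within each group replicate 3 was lowest. The log2 fold change of Atic was 0.06 ± 0.09 with a 95% interval of -0.14 to 0.26 (adjusted p = 0.684, edgeR). The ratio of Adsl to Atic in FPKM, which are scaled to length and depth by the authors, was 0.612, 0.66 and 0.774 with DMSO and 0.857, 0.892 and 0.842 with CKBA, without overlap. That pair was chosen after its values were seen, and the ratio was not tested.

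Of the GMP branch, 0 of 2 enzymes passed the test (edgeR), at an unadjusted p under 0.05 for both, and their CKBA libraries lay above the DMSO libraries. Impdh2 (ENSMUSG00000062867, chromosome 9, 108560286 to 108565584, plus strand) encodes an IMP dehydrogenase, the rate-limiting step toward guanine nucleotides. It stood at 302.1, 289.9 and 286.2 CPM with DMSO and at 398.4, 378.5 and 305.6 CPM with CKBA. CKBA replicate 3 lay close to the DMSO libraries. For Impdh2 the fit gave 0.30 ± 0.10 on the log2 scale (adjusted p = 0.0837, edgeR), and with the replicate block the adjusted p was 0.0266 by edgeR. A processed pseudogene, Impdh2-ps, is 99.7% identical to the transcript over 1545 bases and held 691 counts in all libraries against 41583 for Impdh2, so the split of reads between them is uncertain.

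Gmps (ENSMUSG00000027823, chromosome 3, 63976106 to 64022579, plus strand) encodes GMP synthetase, which uses glutamine to turn xanthosine monophosphate into GMP. Its levels were 101.2, 99.8 and 93.5 CPM with DMSO and 123.9, 112.9 and 104.8 CPM with CKBA. The groups did not overlap, and same-numbered libraries differed by 0.29, 0.18 and 0.17 on the log2 scale. For Gmps the fit gave 0.21 ± 0.08 (adjusted p = 0.122, edgeR), and with the replicate block the adjusted p was 0.0401 by edgeR.

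Among the enzymes chosen for description, Cad and Umps of UMP synthesis had the smaller estimates together with Atic. This does not hold for all of UMP synthesis. Dhodh, which acts between Cad and Umps and is given further below, had a larger estimate of 0.37 ± 0.11 (adjusted p = 0.054, edgeR). Cad (ENSMUSG00000013629, chromosome 5, 31054780 to 31078479, plus strand) encodes the fused protein that starts pyrimidine synthesis and joins carbamoyl phosphate from glutamine to aspartate. It read 197.1, 212.7 and 199.9 CPM with DMSO and 238.6, 231.6 and 198.5 CPM with CKBA. Cad in CKBA replicate 3 was inside the DMSO range, and the log2 fold change was 0.13 ± 0.09 with a 95% interval of -0.07 to 0.34 (adjusted p = 0.341, edgeR).

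Umps (ENSMUSG00000022814, chromosome 16, 33954782 to 33967038, minus strand) encodes UMP synthase, which joins orotate to PRPP and removes the carboxyl group. Its levels were 78.3, 80.1 and 83.4 CPM with DMSO and 93.4, 93.2 and 83.7 CPM with CKBA. The lowest CKBA and the highest DMSO library nearly touched. The log2 fold change of Umps was 0.16 ± 0.08 with a 95% interval of -0.02 to 0.34 (adjusted p = 0.196, edgeR). Whether purine and pyrimidine enzymes differed in their change was not tested.

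The difference between the groups was larger in replicates 1 and 2 than in replicate 3. Between CKBA and DMSO replicate 1 the 10 enzymes differed by 0.09 to 0.57 on the log2 scale, with a median of 0.38, and between replicates 2 by 0.08 to 0.51, with a median of 0.36. Between replicates 3 the differences were -0.01 to 0.22 with a median of 0.02. Over all tested genes the median was -0.004, 0.004 and 0.007 for the same pairs of libraries. Summed over the 10 enzymes, the level was 1447.6, 1441.2 and 1455.2 CPM with DMSO and 1859.5, 1787.4 and 1514.8 CPM with CKBA. The sum was even across the DMSO libraries, and CKBA replicate 3 was the lowest of its group but above them.

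How many enzymes passed the test depended on the libraries and settings of the fit. With the replicate number as a block 5 of 10 were called higher, Gart, Paics, Adsl, Impdh2 and Gmps, where 13.8% of all tested genes were. Without CKBA replicate 3 it was 8, all but Pfas and Atic, against 13.7% of genes tested there. Without replicate 3 of either group it was 9, all but Atic, against 26.1%. When any of the 4 libraries numbered 1 or 2 was left out it was 0, against 1.88% and 1.76% of genes for DMSO and 2.42% for either CKBA library. Without DMSO replicate 3 it was 2, Pfas and Adsl, against 9.94%. Summing replicates 1 and 2 within each group left 0, against 0.372%. DESeq2 called 2, Paics and Adsl, where it called 10.0% of genes higher, and edgeR without a filter on low counts called 3, Gart, Paics and Adsl, against 4.77%. Adsl was the only 1 called with the size factors of DESeq2 in edgeR (7.75% of genes), with library totals as the scaling (7.06%), with a stricter filter (8.69%) and on log2 FPKM with pseudocounts of 0.1 (6.01%) and 1 (6.0%). The estimates of all 10 stayed above 0 in each of these fits.

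**Figure D2:**
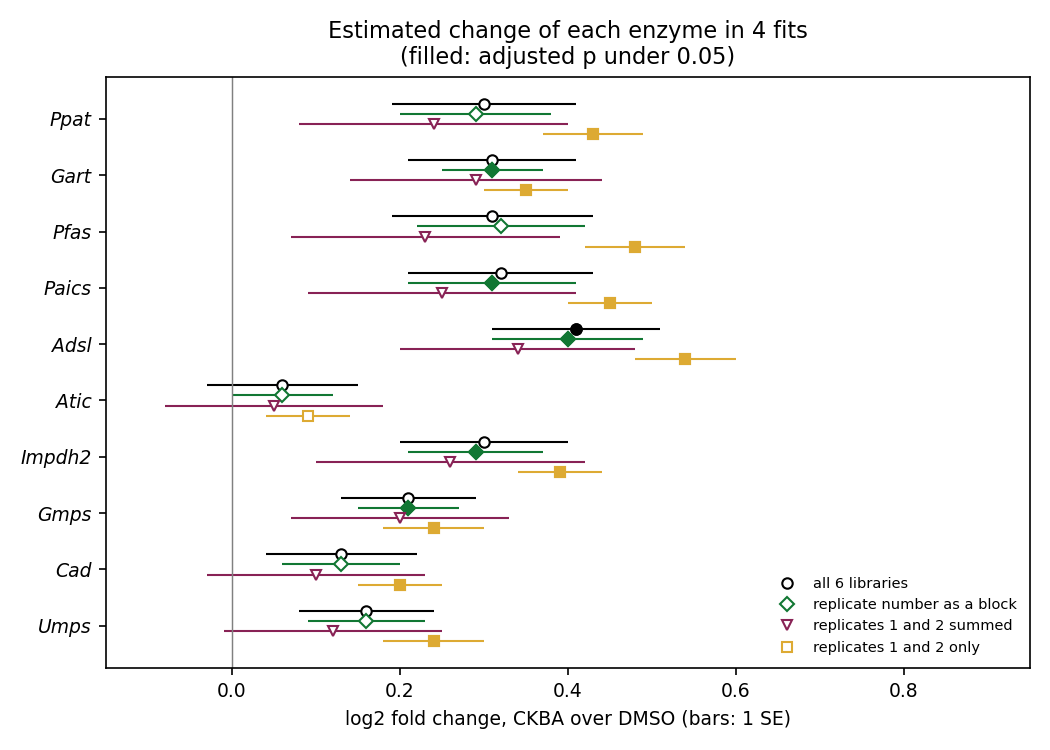
Log2 fold change of CKBA over DMSO (x axis) for each enzyme (y axis) in 4 fits with edgeR, with bars of 1 SE and filled symbols for an adjusted p under 0.05. The filled symbols number 1 with all 6 libraries, 5 with the replicate block, 0 with replicates 1 and 2 summed and 9 with replicates 1 and 2 only.

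Per length, the enzymes differed widely in level, and their order is given for the DMSO libraries. In the authors' FPKM, Impdh2 at 95.4 ± 2.02 (mean ± SD, n = 3) and Paics at 74.8 ± 4.0 were the most abundant, above 96.7% and 95.4% of tested genes. Gart followed at 27.4 ± 1.26, Cad at 24.9 ± 0.944, Umps at 23.2 ± 1.22 and Atic at 21.2 ± 0.781 FPKM. Ppat at 16.0 ± 0.632, Adsl at 14.4 ± 1.24, Pfas at 13.9 ± 2.71 and Gmps at 12.1 ± 0.275 FPKM were lowest. Neighbours whose DMSO libraries overlapped were Cad and Umps, Ppat and Adsl, Adsl and Pfas, and Pfas and Gmps, and these are not ordered beyond their spread. Ppat, the committed step of purine synthesis, was thus at a lower transcript level than Paics, which acts later. Its mean was above those of Adsl, Pfas and Gmps, which also act later, though its libraries overlapped those of Adsl and Pfas.

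Ppat and Paics lie head to head on chromosome 5. In GENCODE M21 their starts are 271 bases apart, and the genes overlap by 272 exonic bases, which are 6.15% of the exonic bases of Ppat and 8.67% of those of Paics. Without strand, reads in that stretch cannot be assigned to either. Their FPKM ratio, Paics over Ppat, was 4.63, 4.62 and 4.74 with DMSO and 4.72, 4.66 and 4.76 with CKBA, so that the pair kept one proportion in all 6 libraries within a range of 4.62 to 4.76. Gart has a neighbour on the other strand, Son, which encodes an RNA splicing cofactor. Son starts 554 bases upstream of the Gart start, so that Gart and Son, unlike Ppat and Paics, do not overlap. Son was at 724.1 ± 19.9 CPM with DMSO and at 674.0 ± 44.8 CPM with CKBA (log2 fold change -0.10 ± 0.08, adjusted p = 0.391, edgeR). The ratio of Son to Gart in FPKM was 1.75, 1.75 and 2.06 with DMSO and 1.24, 1.27 and 1.72 with CKBA, without overlap, and was not tested. An antisense gene, Gm15964, shares 1014 exonic bases with Gart and had 264 counts against 15547. Another, Gm15829, starts 799 bases from Umps and was at 0.13 ± 0.0723 and 0.262 ± 0.0769 CPM, too low to test.

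The promoters of Paics and Ppat are shown because the genes share a start region, that of Adsl because Adsl alone passed the test, and those of Impdh2 and Atic because they hold an E-box and differ in their estimates. Each sequence runs from 250 bases before to 50 bases after the start of the RefSeq transcript (GRCm38.p6), 5′ to 3′ on the gene's strand. Capitals mark an E-box (CACGTG, the site of MYC and MAX), a CCAAT box (CCAAT or its reverse complement) or the palindromic site of NRF1.
Paics, chr5:76951052-76951351, plus strand: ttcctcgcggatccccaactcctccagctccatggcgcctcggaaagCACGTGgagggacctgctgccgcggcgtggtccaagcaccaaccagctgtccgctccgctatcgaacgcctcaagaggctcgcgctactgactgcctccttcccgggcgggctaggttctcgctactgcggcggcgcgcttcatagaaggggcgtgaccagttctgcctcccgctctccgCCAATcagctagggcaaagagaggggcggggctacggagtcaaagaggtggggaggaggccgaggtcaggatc
Ppat, chr5:76951529-76951828, minus strand: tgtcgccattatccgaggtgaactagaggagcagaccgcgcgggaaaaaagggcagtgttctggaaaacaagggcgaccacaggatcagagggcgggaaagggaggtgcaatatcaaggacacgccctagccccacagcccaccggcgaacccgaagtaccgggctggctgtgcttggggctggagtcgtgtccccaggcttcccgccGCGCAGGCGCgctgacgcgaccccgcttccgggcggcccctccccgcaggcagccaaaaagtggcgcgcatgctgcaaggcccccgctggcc
Impdh2, chr9:108560186-108560485, plus strand: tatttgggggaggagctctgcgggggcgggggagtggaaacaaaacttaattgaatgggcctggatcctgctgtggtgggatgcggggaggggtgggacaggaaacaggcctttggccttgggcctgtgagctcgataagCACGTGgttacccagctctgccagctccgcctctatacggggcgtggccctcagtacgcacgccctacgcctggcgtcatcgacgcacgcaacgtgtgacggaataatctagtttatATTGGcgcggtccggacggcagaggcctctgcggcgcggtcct
Atic, chr1:71556906-71557205, plus strand: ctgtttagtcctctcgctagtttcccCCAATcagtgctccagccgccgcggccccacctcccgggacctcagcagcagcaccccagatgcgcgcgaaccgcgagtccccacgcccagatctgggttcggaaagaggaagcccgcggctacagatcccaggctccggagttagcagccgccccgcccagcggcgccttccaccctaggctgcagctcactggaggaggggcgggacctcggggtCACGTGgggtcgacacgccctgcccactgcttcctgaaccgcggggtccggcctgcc
Adsl, chr15:80948240-80948539, plus strand: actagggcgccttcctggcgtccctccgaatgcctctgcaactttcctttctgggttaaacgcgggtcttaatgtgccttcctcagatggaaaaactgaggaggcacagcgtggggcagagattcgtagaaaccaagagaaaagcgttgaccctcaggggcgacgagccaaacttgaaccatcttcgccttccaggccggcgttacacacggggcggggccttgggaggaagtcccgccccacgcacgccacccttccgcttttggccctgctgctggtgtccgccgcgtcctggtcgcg

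Windows were given for 9 of the 10 enzymes, all but Pfas, and were searched on both strands. An E-box was in 3 of the 9, Paics at position -203, Impdh2 at -110 and Atic at -7, counted from the start, against 7.15% of 32817 promoter windows. The log2 fold changes of these genes were 0.32, 0.30 and 0.06, and Adsl, with the largest estimate, had none of the motifs. An NRF1 site was in 1, Ppat, against 4.59%, and a CCAAT box in 4, Atic, Paics, Impdh2 and Gart, against 37.4%. The C/EBP-ATF response element core (TGATGNAA), to which ATF4 binds, was in 0 of 9, against 3.97% of all windows. A match of letters is a description and shows no binding. The 9 windows held 53.0% to 69.7% G and C, against a median of 52.7% over all windows.

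The remaining enzymes of de novo synthesis moved in both directions. Of 15 listed genes, all tested, 3 rose and 2 fell, with a median of 0.20. Of all tested genes 7.86% rose and 9.23% fell, which is the background for the lists below too. Prps1, which makes the PRPP that both pathways consume, rose from 185.2 ± 8.26 to 263.5 ± 9.23 CPM (mean ± SD, n = 3). The DMSO libraries held 192.1, 176.0 and 187.5 CPM and the CKBA libraries 273.7, 261.3 and 255.6 CPM, and CKBA replicate 3 lay close to the other CKBA libraries and far above DMSO. The log2 fold change of Prps1 was 0.51 ± 0.07 (adjusted p = 0.00388, edgeR), and Prps1 was called in each of the 6 fits that left out 1 library. With replicates 1 and 2 summed it was not (adjusted p = 0.144, edgeR). Its isozyme Prps2 was at 96.8 ± 4.02 and 108.6 ± 6.71 CPM, a log2 fold change of 0.17 ± 0.08 that did not pass (adjusted p = 0.184, edgeR). Prpsap2, which encodes a protein bound to the PRPP synthetases and was named after its value was seen, rose by 0.47 (adjusted p = 0.0167, edgeR), a call lost when a library numbered 1 or 2 was left out (largest adjusted p 0.0877, edgeR).

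For the GMP and CTP steps, the isozymes of a pair had estimates of opposite sign. Impdh1, the other IMP dehydrogenase, was at 123.4, 129.8 and 90.4 CPM with DMSO and at 85.7, 82.0 and 82.1 CPM with CKBA. It fell by 0.46 ± 0.13 on the log2 scale (adjusted p = 0.0478, edgeR), while Impdh2 had an estimate of 0.30. DMSO replicate 3 lay near the CKBA libraries. The Impdh1 call was lost without any 1 library other than DMSO replicate 3, with adjusted p of up to 0.185 by edgeR. In FPKM the ratio of Impdh2 to Impdh1 was 2.62, 2.39 and 3.39 with DMSO and 4.98, 4.94 and 3.98 with CKBA.

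Ctps, which encodes the CTP synthase that T cells need to expand, stood at 63.3, 61.2 and 76.2 CPM with DMSO and at 92.7, 92.0 and 80.8 CPM with CKBA. It rose by 0.40 ± 0.11 (adjusted p = 0.0372, edgeR). Its isozyme Ctps2 went from 76.1, 78.5 and 78.1 to 64.1, 62.2 and 66.2 CPM and fell by 0.27 ± 0.07 (adjusted p = 0.0342, edgeR). Both calls were lost when any of the 4 libraries numbered 1 or 2 was left out (largest adjusted p 0.153 for Ctps and 0.145 for Ctps2, edgeR). The call of Ctps was also lost with library totals as the only scaling (adjusted p = 0.051, edgeR), and that of Ctps2 without a filter on low counts (adjusted p = 0.0835, edgeR). On log2(FPKM + 0.1) neither Impdh1 nor Ctps passed (adjusted p = 0.0613 and 0.0651, limma). The FPKM ratio of Ctps to Ctps2 was 1.19, 1.11 and 1.39 with DMSO and 2.06, 2.10 and 1.74 with CKBA. As for Impdh2 over Impdh1, the ratio did not overlap between the groups. This follows from the FPKM, where Impdh2 and Ctps were higher and Impdh1 and Ctps2 lower in each CKBA library than in each DMSO library. It is therefore no further finding, though a ratio within a library does not depend on how libraries are scaled. The pairs were set side by side after their values were seen, and with 3 libraries in each group an exact permutation test of such a ratio cannot go below p = 0.1, so none was run.

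Dhodh, the mitochondrial enzyme between Cad and Umps, had 18.2 ± 0.689 CPM with DMSO and 23.6 ± 2.32 CPM with CKBA, a log2 difference of 0.37 ± 0.11 (adjusted p = 0.054, edgeR). With the replicate block it passed (adjusted p = 0.0337, edgeR). Adss, which leads from IMP toward AMP, had an estimate of 0.13 ± 0.09 on the log2 scale (adjusted p = 0.377, edgeR). Its muscle-type relative Adssl1 had 0.33 ± 0.27 at 4.73 and 5.91 CPM (adjusted p = 0.449, edgeR). Over the 15 genes 1 rose and 0 fell when any of the 4 libraries numbered 1 or 2 was left out. In those fits 1.76% to 2.42% of all tested genes rose. Leaving out CKBA replicate 3 gave 7 that rose and 1 that fell, where 13.7% of all tested genes rose and 14.1% fell.

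**Figure D3:**
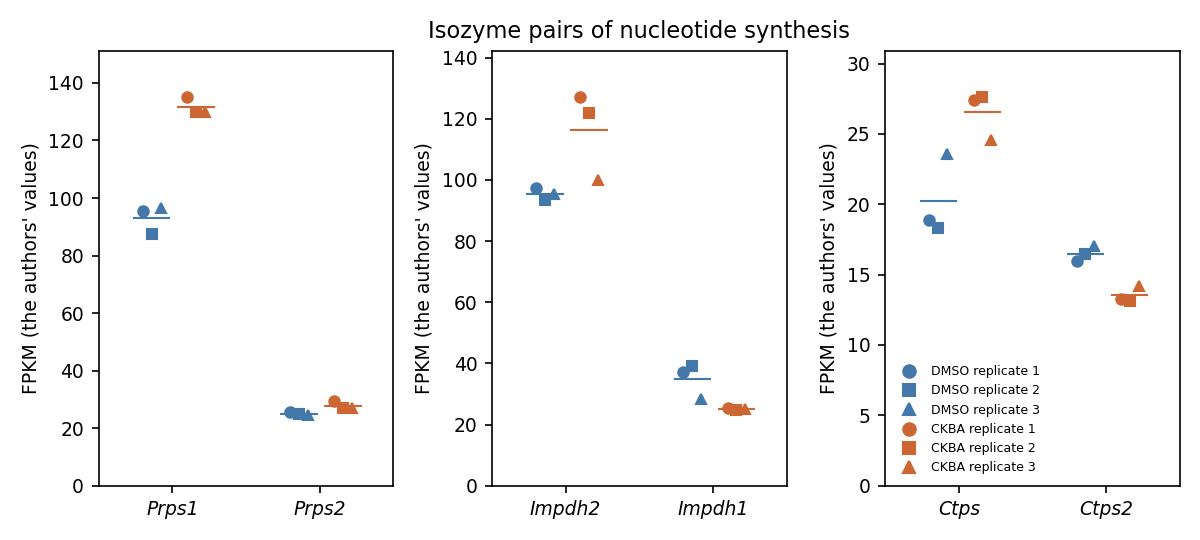
The authors' FPKM (y axis) of 3 isozyme pairs in each library, with DMSO in blue, CKBA in orange, a marker shape per replicate and a line at each group's mean. Impdh1 and Ctps2 are lower and Prps1, Prps2, Impdh2 and Ctps higher in each CKBA library than in each DMSO library.

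Enzymes that turn ribonucleotides into DNA precursors rose with CKBA where they passed the test. Of 8 genes, 3 rose and 0 fell, with a median of 0.42. Tyms, thymidylate synthase, which uses folate-bound carbon, rose from 33.7 ± 4.29 to 53.5 ± 6.91 CPM (log2 fold change 0.67 ± 0.13, adjusted p = 0.0138, edgeR). Dtymk, thymidylate kinase, rose by 0.46 ± 0.10 (adjusted p = 0.02, edgeR). The third was Rrm1, the large subunit of ribonucleotide reductase, named like the further called genes of these lists after its values were seen, with 0.40 ± 0.11 (adjusted p = 0.0384, edgeR). By edgeR 0 of the 8 were called when any of the 4 libraries numbered 1 or 2 was left out, and 7 were without CKBA replicate 3. Of all tested genes 1.76% to 2.42% were called higher in the former fits and 13.7% in the latter.

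Salvage genes showed no common direction, and the breakdown genes that passed with all 6 libraries fell. Of 18 tested salvage genes and carriers, 2 rose and 1 fell, with a median of 0.06. With the replicate block 3 rose and 3 fell, where 13.8% of all tested genes rose and 14.4% fell, so these counts are near the background. Ampd2, AMP deaminase, rose by 0.32 ± 0.08 and Tk1, the thymidine kinase of dividing cells, by 0.47 ± 0.12 (adjusted p = 0.0285 and 0.0381, edgeR). Upp1, uridine phosphorylase, fell from 13.9 ± 2.39 to 6.96 ± 2.66 CPM (adjusted p = 0.0388, edgeR). Of 11 tested breakdown genes 2 fell and 0 rose, with a median of -0.04, and 3 had an estimate above 0. The breakdown list summed to 1760.5 to 1867.8 CPM with DMSO and 1351.5 to 1496.5 CPM with CKBA. Samhd1 had the highest mean of the list in both groups. Samhd1, which hydrolyses deoxynucleoside triphosphates, fell from 884.1 ± 48.2 to 568.1 ± 40.2 CPM, by 0.64 ± 0.08 on the log2 scale (adjusted p = 0.00285, edgeR), and was called in each fit without 1 library. Entpd1, the ectonucleotidase CD39, fell by 0.53 ± 0.15 (adjusted p = 0.0478, edgeR), a call lost without any 1 library other than CKBA replicate 3. The calls of Ampd2 and Tk1 were lost when any of the 4 libraries numbered 1 or 2 was left out (largest adjusted p 0.129 and 0.152, edgeR), and that of Tk1 also without CKBA replicate 3. That of Upp1 was lost without any 1 library other than CKBA replicate 3 (largest adjusted p 0.135, edgeR). With library totals as the only scaling Tk1 and Entpd1 did not pass (adjusted p = 0.0589 and 0.059, edgeR). On log2(FPKM + 0.1) Ampd2, Tk1, Upp1 and Entpd1 did not pass, with adjusted p of 0.0566, 0.0759, 0.0535 and 0.0989 (limma). The number of salvage genes called was 0 when any of the 4 libraries numbered 1 or 2 was left out. Without DMSO replicate 3, 4 salvage genes rose, where 9.94% of all tested genes did.

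The list drawn up for supply of the building blocks included much larger changes than the 10 enzymes. It also holds genes that consume them, as Asns does aspartate and glutamine. Of its 22 genes, of one-carbon, glycine, glutamine and aspartate supply or use, all tested, 10 rose and 1 fell, with a median of 0.27. The largest rise was in Aldh1l2, a mitochondrial formyl-folate dehydrogenase, from 0.432 ± 0.36 to 18.9 ± 3.66 CPM (log2 fold change 5.41 ± 0.42, adjusted p = 4.87e-04, edgeR). Asns, which consumes aspartate and glutamine to make asparagine, rose from 18.6 ± 6.94 to 148.8 ± 21.8 CPM (3.00 ± 0.25, adjusted p = 5.05e-04, edgeR). Mthfd2, a mitochondrial folate enzyme, rose from 57.2 ± 13.3 to 191.2 ± 6.32 CPM and Phgdh, the entry to serine synthesis, from 109.1 ± 26.5 to 346.9 ± 20 CPM (adjusted p = 6.10e-04 and 8.71e-04, edgeR). Aldh1l1, the cytosolic relative of Aldh1l2, was the gene that fell, from 6.14 ± 3.81 to 1.06 ± 0.516 CPM (adjusted p = 0.0286, edgeR). Its DMSO replicates 1, 2 and 3 held 8.19, 8.49 and 1.74 CPM, the last close to CKBA replicate 1 at 1.63 CPM. The Aldh1l1 call was lost without any 1 library other than DMSO replicate 3 and without a filter on low counts (adjusted p = 0.12, edgeR). The summed level of the list was 2008.3 to 2051.5 CPM with DMSO and 2821.0 to 3306.9 CPM with CKBA. Leaving out any of the 4 libraries numbered 1 or 2 gave 7 that rose and 0 that fell, where 1.76% to 2.42% of all tested genes rose. With replicates 1 and 2 summed, 4 genes of this list rose by edgeR, among them Aldh1l2 and Asns, where 0.372% of all tested genes rose. In that fit 0 genes of the other lists of enzymes, regulators and dividing-cell markers passed. Of 9 genes of the pentose phosphate pathway, which yields the ribose of PRPP, 1 rose and 0 fell, with a median of 0.05. With the replicate block 1 rose and 2 fell, where 13.8% of all tested genes rose and 14.4% fell. Rpia, which forms ribose 5-phosphate, rose from 38.9 ± 4.64 to 58.5 ± 5.24 CPM (0.59 ± 0.11, adjusted p = 0.013, edgeR), a call lost when a library numbered 1 or 2 was left out (largest adjusted p 0.0741, edgeR). Pgd, which makes ribulose 5-phosphate, had an estimate of -0.62 ± 0.19 (adjusted p = 0.0559, edgeR), and with the replicate block an adjusted p of 0.00729 by edgeR. Its levels were 154.8, 155.4 and 94.5 CPM with DMSO and 96.3, 88.5 and 78.3 CPM with CKBA, and the groups overlapped.

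**Figure D4:**
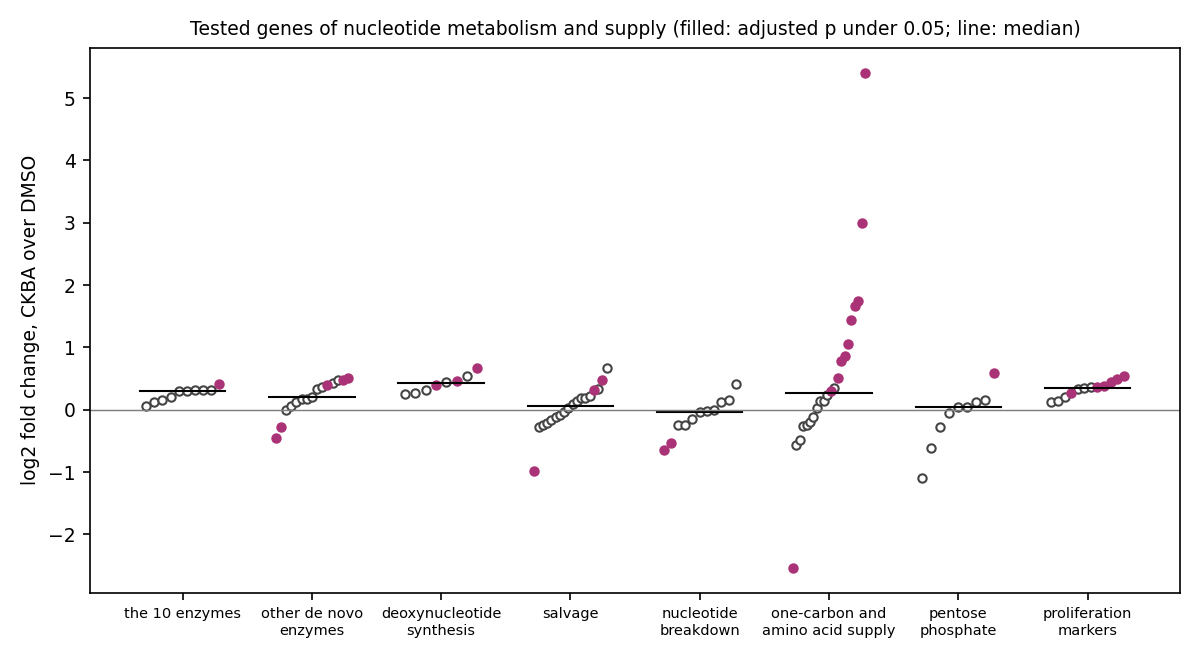
Log2 fold change of CKBA over DMSO (y axis) of each tested gene in 8 gene lists (x axis), with filled points for an adjusted p under 0.05 by edgeR and a line at each median. The 10 enzymes lie between 0.06 and 0.41, while genes listed under one-carbon and amino acid supply reach 5.41.

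Among regulators, 3 of 10 tested rose and 2 fell, with a median of -0.07. Myc, which drives transcription of nucleotide synthesis genes in dividing cells, stood at 324.9, 313.7 and 302.1 CPM with DMSO and at 381.4, 371.5 and 412.7 CPM with CKBA. It rose by 0.31 ± 0.07 on the log2 scale (adjusted p = 0.0258, edgeR), and in CKBA replicate 3, where the 10 enzymes were lowest of their group, Myc was highest. The call was lost when any of the 4 libraries numbered 1 or 2 was left out (largest adjusted p 0.113, edgeR). Atf4, the stress factor that induces serine and folate enzymes, rose from 158.6 ± 11.7 to 297.4 ± 23.6 CPM (0.91 ± 0.09, adjusted p = 0.00106, edgeR). Hif1a fell from 737.9 ± 209 to 296.2 ± 17.3 CPM (-1.32 ± 0.20, adjusted p = 0.00517, edgeR). Its DMSO replicates 1, 2 and 3 held 878.8, 837.0 and 497.9 CPM, so the fall was smaller in replicate 3. Rheb, the activator of mTORC1, rose by 0.43 ± 0.11, and Mxd4, a MAX partner that represses transcription, fell by 0.44 ± 0.11 (adjusted p = 0.0372 and 0.0302, edgeR). Both calls were lost when any of the 4 libraries numbered 1 or 2 was left out (largest adjusted p 0.147 and 0.121, edgeR), that of Mxd4 also without DMSO replicate 3, and both on log2(FPKM + 0.1) (adjusted p = 0.0678 and 0.0615, limma). Atf4 and Hif1a were called in each of the 6 fits without 1 library, and neither was with replicates 1 and 2 summed (adjusted p = 0.0585 and 0.128, edgeR).

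Markers of dividing cells, like the 10 enzymes, were higher in CKBA replicates 1 and 2 than in CKBA replicate 3. Of 12 such genes 6 rose and 0 fell, with a median of 0.35. Mcm5, a subunit of the replication helicase, rose by 0.54 ± 0.10 and Mki67, the gene of the Ki-67 antigen, by 0.49 ± 0.10 (adjusted p = 0.00956 and 0.0159, edgeR). Their summed level was 3044.1, 2998.4 and 3435.5 CPM with DMSO and 4412.9, 4246.7 and 3710.9 CPM with CKBA, and the groups did not overlap. Leaving out DMSO replicate 1 or 2 or CKBA replicate 2 gave 0 that rose, and leaving out CKBA replicate 1 gave 1. In those fits 1.76% to 2.42% of all tested genes rose. Leaving out CKBA replicate 3 gave 10, against 13.7% of all tested genes. The 4 B cell markers, none of them at 0, summed to 21.9, 23.7 and 17.5 CPM with DMSO and to 45.7, 45.4 and 9.41 CPM with CKBA. They too were highest in CKBA replicates 1 and 2, and 1 of them, Ms4a1, was called higher (adjusted p = 0.0434, edgeR), though its groups overlapped and the call was lost with the replicate block (adjusted p = 0.0913, edgeR). Myeloid markers summed to at most 4.07 CPM and fibroblast markers to at most 1.42 CPM, and those of CD8 and NK cells to 35.8 to 48.3 CPM with DMSO and 32.1 to 41.6 CPM with CKBA. Of these, Eomes was called higher, at 1.28 ± 1.09 and 6.05 ± 2.76 CPM, and Cd8a lower, at 28.2 ± 3.74 and 20 ± 1.97 CPM (adjusted p = 0.0329 and 0.035, edgeR), and both calls were lost when any of the 4 libraries numbered 1 or 2 was left out. The part of dividing cells or of B cells in the levels of the 10 enzymes was not tested.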

How the data were processed

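The authors deposited 1 table with expected counts per gene and library, FPKM, log2 fold changes, p-values and FDR. The submitters' processing notes name CASAVA 1.8, RSEM, edgeR and the GRCm38 build, and the aligner and annotation release are not given in the sources used here. The deposited expected counts were all whole numbers, so rounding changed 0 values, and 23224 of 47725 genes had no count. RSEM divides reads between similar genes, and whether strand was kept is not given. The authors' log2 fold changes and p-values (FDR) are quoted only by name.

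The main test of the counts was that of edgeR 4.0.16, in R 4.3.3 (quasi-likelihood F test, robust, TMM, filterByExpr, Benjamini-Hochberg over 13928 genes, threshold 0.05), checked on simulated data. The simulated libraries were independent and had no replicate structure, so the check does not cover the difference of replicate 3 seen here. Alternatives used DESeq2 1.42.0 and limma 3.58.1 on log2(FPKM + 0.1 or 1), with FPKM of at least 0.5 in 3 libraries. Same-numbered libraries deviated together from their group means (r = 0.244, 0.235 and 0.436), which met the rule for pairing. Numbers 1 and 2 matched each other as well crosswise (0.232 and 0.244), and DMSO replicate 3 ran against CKBA replicate 1 (-0.326). The values thus show replicate 3 apart in both groups and do not single out pairs 1 and 2. Because the labels state no pairing, the design without the block was kept as the main test. Near-identical copies were sought with megablast in GENCODE M21 transcripts. Promoter sequences are RefSeq's.

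The 10 enzymes, the gene lists and the tests were chosen with earlier results of these data known. Named genes are the 10 enzymes, 8 other listed de novo enzymes, 2 genes of each other list with the smallest adjusted p, Myc, Atf4, and genes starting within 1 kb of an enzyme's start on the other strand. Intervals of log2 fold changes are at 95%.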

Additional observations from a re-analysis of the deposited data

How the results depend on the processing

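All 10 enzymes kept an estimate above 0 under the 16 alternatives, with 0 of 160 values reversed, and the median stayed at 0.23 to 0.37 against 0.30. Of the 160 values, 132 stayed on the same side of the threshold, 23 passed it where the reported fit did not, and 5 lost the call of Adsl. The count of enzymes called, 1 as reported, was 2 with DESeq2, 3 without a filter on low counts, 5 with the replicate block, 0 to 8 when 1 library was left out, 0 with replicates 1 and 2 summed and 9 without replicate 3 of either group. Among all genes 2381 were called, against 3931 with the replicate block, 641 to 3975 when 1 library was left out, 110 with replicates 1 and 2 summed and 7388 without replicate 3 of either group. The cause was not tested. The other scalings, the stricter filter and log2 FPKM gave 1 enzyme called each, and scaling moved the median of all genes by at most 0.011. Adssl1, at 0.33, lay between -0.03 and 0.49 when 1 library was left out, with the negative value without CKBA replicate 3, and at -0.00 without replicate 3 of either group. No library is deeper than 25331863 counts, and the smallest count behind a value of the 10 enzymes is 1396, so that the spread between libraries rather than counting error limits these values.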
